A study of Mus musculus with 2 samples.

Results

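Imprinted genes are expressed from the allele of 1 parent, and 46 of them were looked up by name on the 2 arrays of the series. The list was chosen with earlier results of these data known. Probes carried the names of 43, so that 43 of the 23138 gene names and 88 of the 42404 probes on the arrays are described here. Peg10, Nap1l5 and Magel2 had no probe under those names. The genes fell into 19 loci on 11 chromosomes. By textbook knowledge, 7 genes lie in loci whose control region is methylated in the paternal germ line, 33 in loci with a mark from the maternal germ line, and 3 (Dcn, Gatm and Htr2a) were given no germ line mark.

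The series compared genomic DNA by array comparative genomic hybridisation, in which 2 DNA samples carry different dyes and compete for the same probes. On the adult array, tail DNA of adult female C57BL/6 Dnmt3L+/+ offspring of a sire heterozygous for Dnmt3L was labelled with Cy3, and tail DNA of Dnmt3L+/+ adult females of an unrelated C57BL/6 colony with Cy5. On the embryo array, whole-embryo DNA of female Dnmt3L+/+ offspring of a heterozygous sire at E10.5 was labelled with Cy5, and whole-embryo DNA of female Dnmt3L+/+ embryos of a control cross at the same stage with Cy3. The description of the embryo sample names C57BL/6 and its title an F1 of FVB/NJ and C57BL/6. All animals of both arrays were therefore wild type at Dnmt3L, and offspring and control differed in the genotype of the sire. The control also came from an unrelated colony (adult) or a control cross (embryo) and carried the other dye. On 1 array these differences cannot be told apart from the genotype of the sire. Each stage has 1 array and no replicate, and the labels do not say if DNA of more than 1 animal was mixed.

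Imprints are set in the germ line, where DNA methylation is laid down on control regions in the egg or in the sperm precursor, and are then kept through the divisions of the embryo while the rest of the genome is reprogrammed. Dnmt3L has no catalytic activity of its own and acts as a cofactor of the de novo methyltransferases. It is needed for the maternal marks in oocytes and for methylation of paternally marked regions and repeats in male germ cells. The arrays measured the relative amount of DNA at each probe, not methylation and not expression.

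The measure is the log2 ratio of offspring over control from the processed signals, centred on the median of each array, and a gene has the median of its probes. A gene was counted as higher or lower where this median lay at or past 0.3 log2, a ratio of 1.23 or 0.812. Of all probes, 97.3% (offspring) and 98.8% (control) were well above background on the adult array, and 99.9% in both channels on the embryo array. Probes spotted repeatedly had a median SD over spots of 0.194 (adult) and 0.0651 (embryo) over 308 probes. The 40482 autosomal probes on both arrays had a Pearson correlation of −0.252 between the arrays (−0.556 with normexp background correction). Probes on X had a median log2 ratio of −0.86 on both arrays, although the labels give all animals as female. None of the imprinted genes lies on X, and the source of this shift was not tested.

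Of the 88 probes, the one with the highest embryo ratio lay in Phlda2, and the probes next to it in its neighbour Slc22a18 did not share that ratio. The promoters of these 2 genes, which share a locus, are therefore shown, chosen after the ratios were seen. Each has 250 bases before and 50 after the transcription start (RefSeq, GRCm38.p6), 5′ to 3′, with CG dinucleotides in capitals. The Phlda2 promoter is chr7:143502475-143502774 on the minus strand and the Slc22a18 promoter is chr7:143473539-143473838 on the plus strand.
Phlda2: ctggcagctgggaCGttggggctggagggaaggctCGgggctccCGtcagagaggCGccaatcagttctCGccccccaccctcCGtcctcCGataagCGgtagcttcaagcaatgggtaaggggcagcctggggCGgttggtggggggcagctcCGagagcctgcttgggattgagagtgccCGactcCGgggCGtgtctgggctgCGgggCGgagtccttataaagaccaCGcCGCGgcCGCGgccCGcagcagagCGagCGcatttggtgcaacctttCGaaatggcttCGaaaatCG
Slc22a18: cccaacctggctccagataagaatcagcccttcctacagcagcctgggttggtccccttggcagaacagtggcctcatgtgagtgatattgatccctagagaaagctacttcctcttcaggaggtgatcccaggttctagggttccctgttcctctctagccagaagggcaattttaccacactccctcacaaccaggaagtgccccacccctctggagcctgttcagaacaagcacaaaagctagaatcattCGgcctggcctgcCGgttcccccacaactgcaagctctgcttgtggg
The motif searched was CG, which reads the same on both strands. The Phlda2 promoter holds 26 and the Slc22a18 promoter 2. Of the 32851 promoters of the same length in that table, 94.6% hold at least 1 CG, 16.9% hold 26 or more and 23.3% hold 2 or fewer. A promoter was found for 36 of the 43 genes, with a median of 17 CG (2 to 34) and a GC content of 59%, against 16 CG and 58.3% over 8298 named autosomal genes. Across these genes Spearman's rho between promoter GC content and the log2 ratio was −0.261 in the embryo and 0.126 in the adult for the imprinted genes, and −0.0095 and 0.0604 for the 8298. These genes share their array and, in part, their base composition, and whether any probe lies in a promoter was not checked.

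On the adult array 7 of the 43 imprinted genes were higher in the offspring and 0 lower. The 7 were Dio3, Peg3, Igf2r, Cdkn1c, Mkrn3, Htr2a and Atp10a. Among all named autosomal genes 9.38% were higher, 10.3% lower and 19.7% either, so the 16.3% of imprinted genes past the threshold lay near the background. The median log2 ratio of the 43 genes was 0.02 (binomial 95% interval −0.02 to 0.14), against 0.01 for all named autosomal genes. On the embryo array 13 imprinted genes (30.2%) were past the threshold, 5 higher and 8 lower, against 21.2% of all named autosomal genes (10.2% higher and 11% lower). The higher ones were Phlda2, Igf2, Slc38a4, Impact and H19, and the lower ones Cdkn1c, Dio3, Slc22a2, Zim1, Cd81, Grb10, Commd1 and Copg2. Their median was 0.06 (−0.02 to 0.10), against 0.01 for all named autosomal genes. With 1 array per stage these are descriptions of the 2 arrays, with no test within a stage. The intervals take the genes as independent, though they share an array and in part a locus. They describe the spread over genes and not over animals. The rest of the genes lay between −0.3 and 0.3, where the values just outside the threshold on the adult array were Sgce at 0.295 and Gnas at 0.288, and the one just inside was Atp10a at 0.302.

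Genes with 1 probe passed the threshold more often than genes with several. Of named autosomal genes with 1 probe, 26% were past it in the adult and 28% in the embryo, and of those with 2 or more probes 13.4% and 14.4%. Of the imprinted genes with 1 probe, 3 of 13 were past it in the adult and 5 of 13 in the embryo, and of those with 2 or more, 4 of 30 and 8 of 30. Among the 88 probes, 19 were higher and 6 lower on the adult array, where 12.9% and 13% of autosomal probes were, and 11 higher and 15 lower on the embryo array, against 12.4% and 14.2%. The probes of a gene had opposite signs in 25 of 30 genes in adults and in 10 of 30 genes in embryos, with a median range within a gene of 0.41 and 0.29 log2. In 2 genes, Grb10 and Slc38a4, every probe of a gene with at least 2 was past the threshold in 1 direction, both on the embryo array, and on the adult array there was 0. Neither this count nor that of opposite signs was made over all named autosomal genes, so they have no background beside them. With normexp background correction the embryo medians of Grb10 and Slc38a4 were −0.22 and 0.21 and no longer past the threshold.

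**Figure D1:**
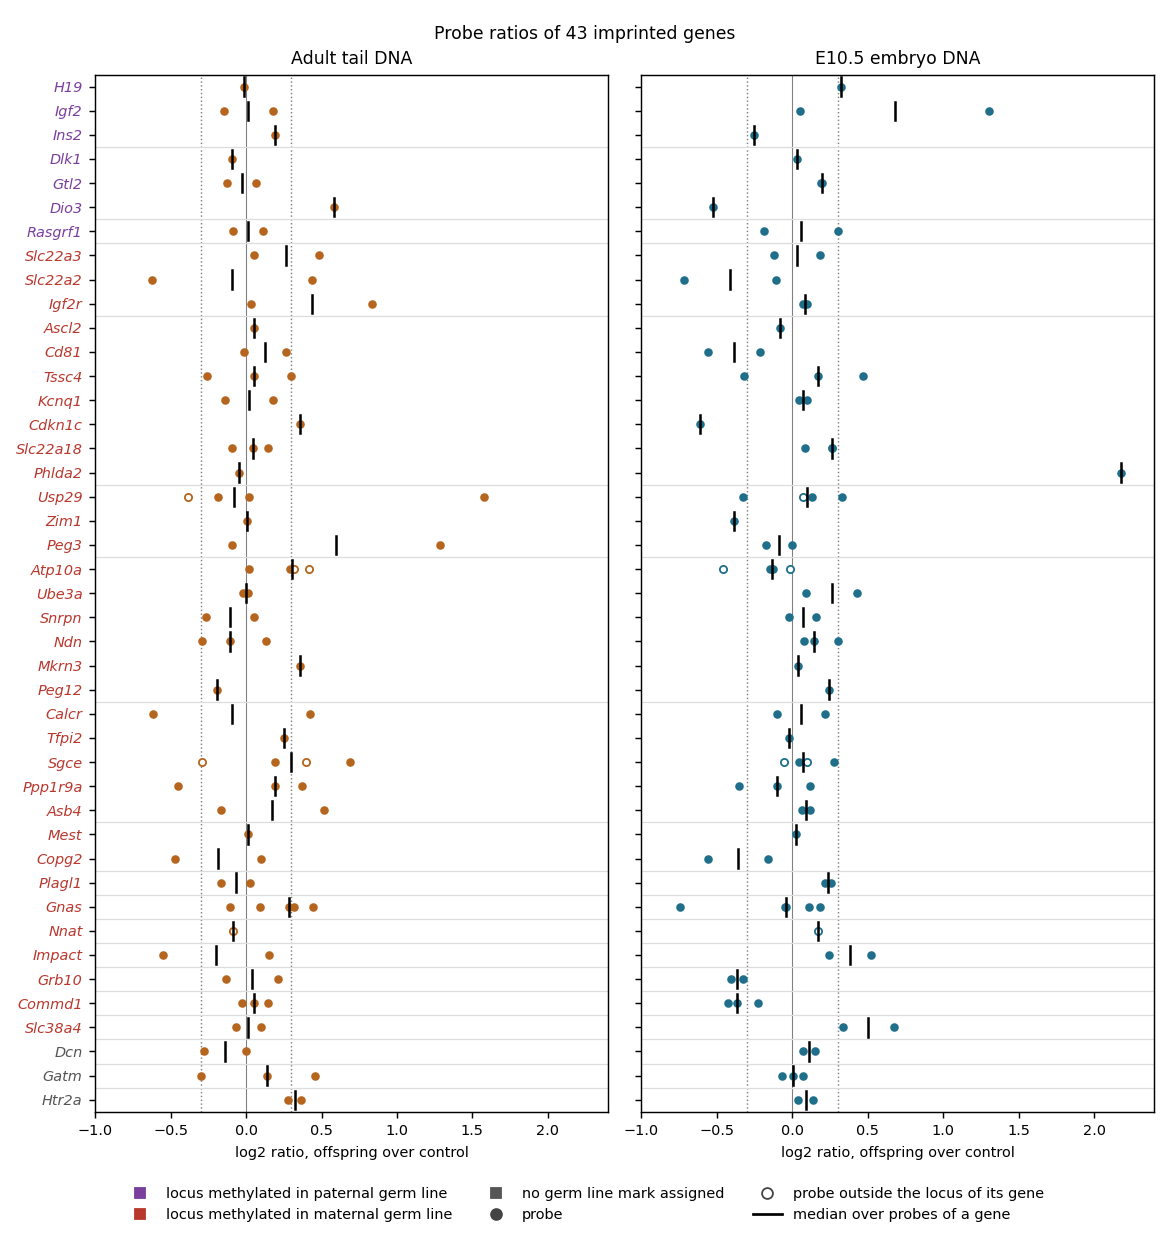
Log2 ratio of offspring over control (horizontal axis, centred on the array median) for the 43 imprinted genes, with the adult array in the left panel and the embryo array in the right one. Each circle is a probe, open where it lies outside the locus of its gene, the black bar is the median of the gene, and the gene names are coloured by the parent whose germ line marks the locus. Phlda2 stands at 2.18 in the embryo, while the adult medians lie between −0.20 and 0.59.

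No imprinted gene passed the threshold in the same direction on both arrays (0 of 43, against 1.11% of all named autosomal genes). The sign agreed in 16 of 43 (37.2%, against 39.7%), and 2 genes, Dio3 and Cdkn1c, were past the threshold in opposite directions, against 4.79%. Over the 88 probes the correlation between arrays was −0.269 (Pearson) and −0.365 (Spearman), and the points share their array, dyes and probe sequences. A limma fit pooled the 2 arrays, although they differ in stage, tissue, control and the dye of the offspring. It has 1 residual degree of freedom per probe before moderation, and a difference between the stages counts as residual scatter. In this fit 0 of 42362 probes had an adjusted p under 0.05 (0%), and 1920 had an unadjusted p under 0.05 (4.53%). A ratio present at 1 stage only, such as that of Phlda2 (2.18 in the embryo and −0.05 in the adult), was therefore not tested. With normexp 39 of all probes had a limma adjusted p under 0.05, of which 0 were in imprinted genes. Of the 88 imprinted gene probes, 0 had an unadjusted p under 0.05. The smallest was 0.0547 for an Sgce probe, and for the Phlda2 probe it was 0.0583, with a limma adjusted p of 0.999998 for both.

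**Figure D2:**
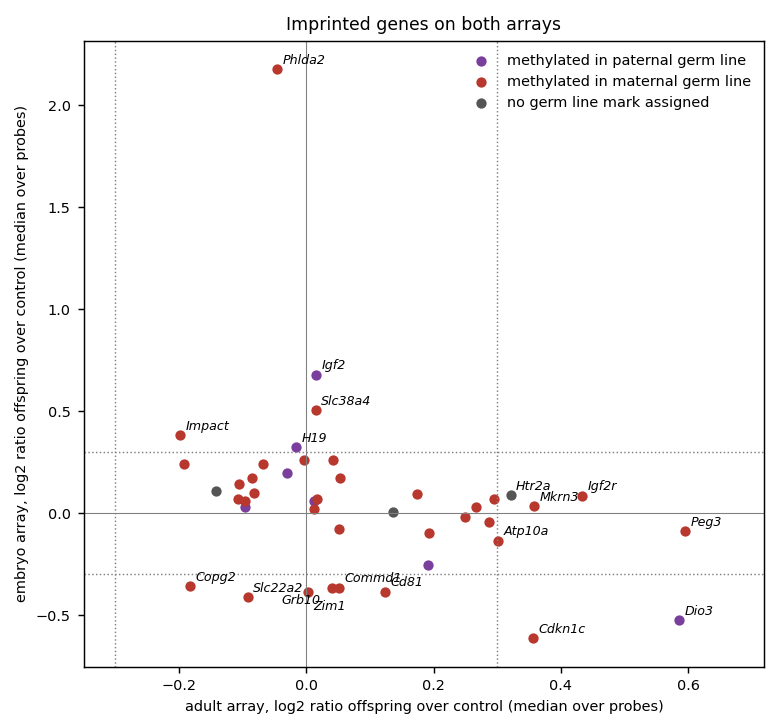
Median log2 ratio of offspring over control of each of the 43 imprinted genes, on the adult array (horizontal axis) and the embryo array (vertical axis), with 1 point per gene coloured by the parent whose germ line marks the locus and dotted lines at −0.3 and 0.3. No point lies past the dotted lines in the same direction on both axes, and Dio3 and Cdkn1c lie at the lower right.

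The genes with a paternal germ line mark had a median of 0.01 in the adult and 0.06 in the embryo, and the genes with a maternal one 0.04 and 0.06. In the first set 1 of 7 genes was past the threshold in the adult (1 higher) and 3 in the embryo (2 higher, 1 lower). In the second, 5 of 33 were in the adult (all higher) and 10 in the embryo (3 higher, 7 lower). Of the 3 genes with no assigned mark, 1 was higher in the adult and 0 were past the threshold in the embryo. By the expressed allele, 17 genes expressed from the paternal copy had medians of 0.01 in the adult and 0.07 in the embryo. The 24 expressed from the maternal copy had 0.05 and 0.05. Gnas and Grb10, the 2 genes assigned to both, had 0.16 and −0.20.

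The H19-Igf2 locus (chromosome 7, 136989251 to 137091716 in the coordinates of the files, whose build is not given) holds the paternally marked control region of H19, a non-coding RNA made from the maternal allele, and of Igf2, a fetal growth factor made from the paternal one. The Igf2 probe at 137064238 had signals of 1783 in offspring and 717 in control embryos, a log2 ratio of 1.31 with a scanner error of 0.285. Of the autosomal probes 247 were as high in the embryo. In adults it had signals of 1959 in offspring and 2133 in control, a ratio of −0.14. The other Igf2 probe, 4.715 kb away, was at 0.05 in the embryo and 0.18 in the adult, so the 2 probes of the gene were apart by more than the threshold in the embryo. The single H19 probe had 1173 in offspring and 932 in control embryos (0.32), and 525 in offspring and 523 in control adults (−0.02). Ins2, an insulin gene, was at −0.25 in the embryo and 0.19 in the adult. The 5 probes across the locus had medians of 0.24 in the embryo and −0.02 in the adult, and the 20 probes on each side had 0.03 and 0.03 in the embryo.

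In the Dlk1-Gtl2 locus (chromosome 12, 104938679 to 105756356), Dio3, which codes for the deiodinase that inactivates thyroid hormone, differed in direction between the arrays. Its single probe had signals of 1424 in offspring and 935 in control adults (0.59), and 866 in offspring and 1240 in control embryos (−0.52). In both arrays the Cy3 channel was the brighter one, since the offspring carried Cy3 in the adult and Cy5 in the embryo. Dlk1, a membrane protein of the Notch ligand type, was at −0.10 in the adult and 0.03 in the embryo, and Gtl2, a non-coding RNA, at −0.03 and 0.20. The 11 probes of the span had medians of −0.04 in the adult and −0.03 in the embryo. Rasgrf1, a guanine nucleotide exchange factor of Ras on chromosome 9 (89798226 to 89865342), was at 0.01 in the adult and 0.06 in the embryo, from probes at 0.11 and −0.08 in the adult and −0.18 and 0.30 in the embryo.

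The Kcnq1 locus (chromosome 7, 137380152 to 137914627) carries a maternal mark and holds 7 of the genes. Phlda2, which restrains growth of the placenta, had signals of 1610 in offspring and 354 in control embryos at 137914568 to 137914627, a log2 ratio of 2.18 with a scanner error of 0.333. Of all autosomal probes 28 were as high. In adults it had 2066 in offspring and 2100 in control (−0.05). The nearest probes on its sides were an Slc22a18 probe 6.098 kb away at 0.26 in the embryo and an unnamed one 6.272 kb away at 0.10, and Nap1l4, 42.6 kb away, was at −0.03. The ratio of Phlda2 was thus carried by 1 probe and not by its neighbours.

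Cdkn1c, an inhibitor of cyclin-dependent kinases, had signals of 2638 in offspring and 2030 in control adults (0.36), and 985 in offspring and 1499 in control embryos (−0.61). As in Dio3, Cy3 was the brighter channel on both arrays. Its neighbours were a probe named TC1530526, 19.4 kb away, at −0.27 in the adult and −0.30 in the embryo, and Slc22a18, 23.5 kb away, at 0.15 and 0.26. Cd81, a tetraspanin, was at 0.12 in the adult and −0.38 in the embryo, where its probes were at −0.21 and −0.56. The 3 probes of Tssc4 spread from −0.26 to 0.30 in the adult and from −0.32 to 0.47 in the embryo. Kcnq1, a potassium channel, was at 0.02 in the adult and 0.07 in the embryo, Slc22a18 at 0.04 and 0.26, and Ascl2, a transcription factor of the trophoblast, at 0.05 and −0.08. Over the 23 probes of the span the medians were 0.04 in the adult and 0.05 in the embryo.

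**Figure D3:**
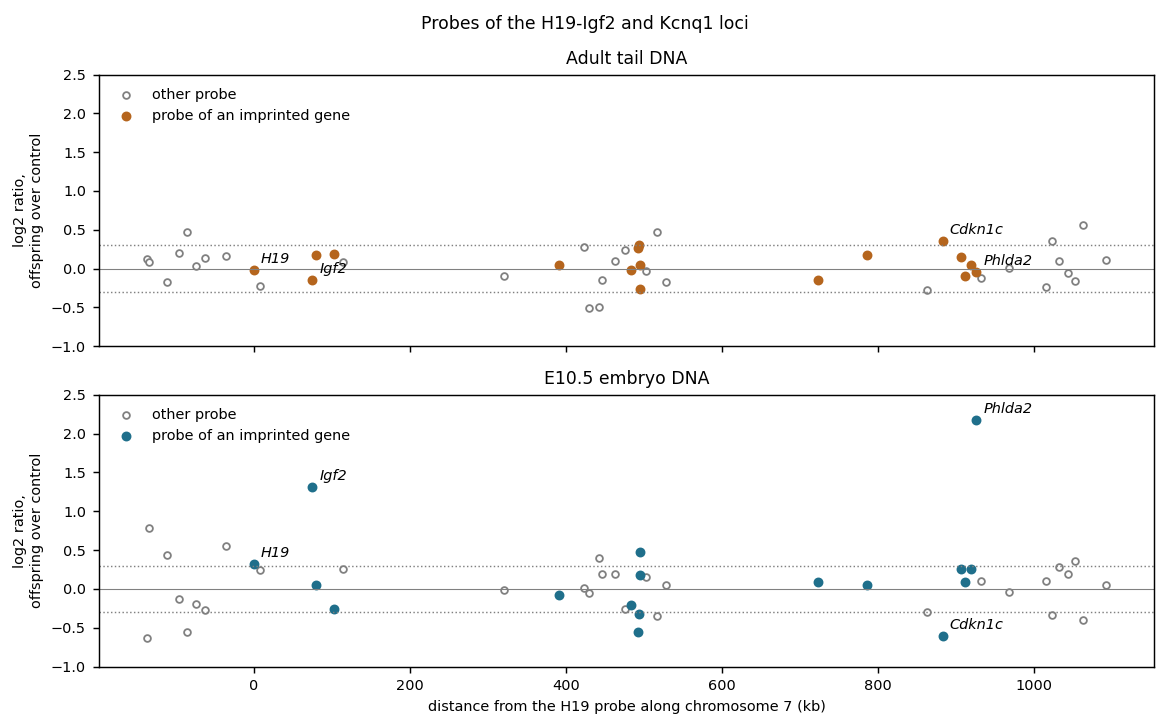
Log2 ratio of offspring over control of the 47 probes along distal chromosome 7 that cover the H19-Igf2 and Kcnq1 loci, by distance along the chromosome, for the adult and the embryo array, with the 17 probes of imprinted genes marked. The medians were 0.05 on both arrays, and 2 probes (in Igf2 and Phlda2) lay at or above 1 in the embryo and 0 in the adult.

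In the Igf2r locus (chromosome 17, 11126547 to 11402061), Igf2r, the receptor that removes IGF2, was at 0.43 in the adult. Its probes disagreed, at 0.84 (signals of 392 in offspring and 216 in control) and 0.03 (3848 and 3705), and in the embryo they were at 0.07 and 0.10. Slc22a2, an organic cation transporter, had adult probes at 0.44 and −0.62. In the embryo the first had signals of 712 in offspring and 1167 in control (−0.72) and the second was at −0.10, a gene median of −0.41. Slc22a3, of the same transporter family, was at 0.27 in the adult and 0.03 in the embryo. The 11 probes of the span had medians of 0.03 and 0.10.

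In the Peg3 locus (chromosome 7, 5879674 to 6167250), Peg3, a zinc finger protein made from the paternal allele, had probes at 1.29 and −0.10 in the adult. The first had signals of 338 in offspring and 137 in control, with a scanner error of 0.687, and 75 autosomal probes were as high. In the embryo the same probe had 320 in offspring and 319 in control (−0.0025). The highest adult ratio of all the imprinted gene probes was that of a Usp29 probe, with signals of 209 in offspring and 69.1 in control. Usp29 is a ubiquitin-specific protease. The control channel of that probe was not well above background, so its fold is uncertain. By the measured signals offspring DNA was 3.02-fold higher at the probe, with a scanner error of 1.18 on the log2 scale. In the embryo it had 376 in offspring and 470 in control (−0.33). The other Usp29 probes of the locus were at 0.02 and −0.19 in the adult. A further one, at −0.39, lies on chromosome 14 in the files (96163478), between Tbc1d4 and Uchl3. The adult median of Usp29 was −0.08 with that probe and 0.02 without it, and the embryo median with it was 0.10. Zim1, a zinc finger gene with 1 probe, was at −0.39 in the embryo (783 in offspring, 1019 in control) and 0.00 in the adult. The probes beside these high adult ratios were at −0.10, 0.02 and −0.19, and the 6 probes of the span had medians of 0.01 in the adult and −0.09 in the embryo.

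**Figure D4:**
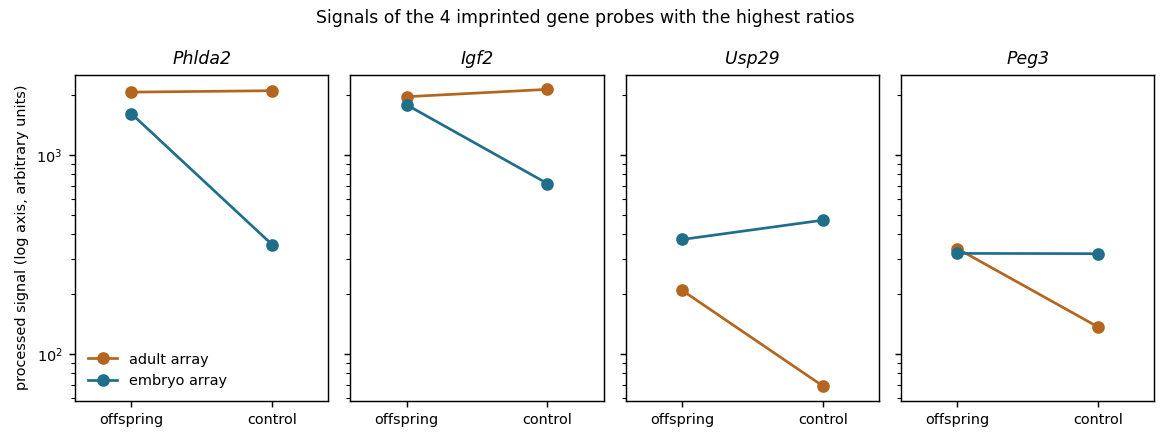
Processed signals (log axis) of offspring and control, on the adult and the embryo array, for the 4 imprinted gene probes with the highest ratios, in Phlda2, Igf2, Peg3 and Usp29. Phlda2 and Igf2 differ between offspring and control on the embryo array (1610 against 354 and 1783 against 717), and Peg3 and Usp29 on the adult array (338 against 137 and 209 against 69.1).

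The Snrpn locus (chromosome 7, 53052187 to 56237134) is the mouse counterpart of the region affected in Prader-Willi and Angelman syndromes. Atp10a, a phospholipid flippase, was at 0.30 in the adult and −0.14 in the embryo. Of its 4 probes, 2 lie at 58754191 and 58847025, next to Ndnl2 and Tjp1 and outside the span, with adult ratios of 0.31 and 0.42, and the 2 inside were at 0.29 and 0.02. Without the 2 outside, the adult median of Atp10a was 0.15 and not past the threshold. It also fell short with loess (0.29), the autosomal centre (0.29), the mean over probes (0.26) and normexp (0.05). Mkrn3, a ring finger protein linked to the timing of puberty, was at 0.36 in the adult (487 in offspring, 374 in control) and 0.03 in the embryo. Ndn, which restrains cell growth in neurons, was at −0.11 in the adult and 0.14 in the embryo, and 1 of its probes was spotted 3 times, with an SD of 0.22 in the adult and 0.05 in the embryo. Snrpn, a splicing protein, was at −0.11 and 0.07, Ube3a, a ubiquitin ligase, at −0.0034 and 0.26, and Peg12 at −0.19 and 0.24. The 24 probes of the span had medians of 0.00 in the adult and 0.09 in the embryo.

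The Peg10 locus (chromosome 6, 3652770 to 5385737) was covered without its paternally expressed namesake. Sgce, a sarcoglycan, had adult probes at 0.19, 0.69, 0.40 and −0.29. The second had a control channel not well above background. By the measured signals it was 1.64-fold higher in offspring, with a scanner error of 1.63 on the log2 scale. The last 2 lie on chromosome 7 in the files, between Fchsd2 and Stard10, whereas the mouse gene table gives Sgce on chromosome 6. The adult median of Sgce was 0.295 with them and 0.44 without them, which is past the threshold, and it was also past it with loess (0.32) and with the deposited log ratio (0.32). Calcr, the calcitonin receptor, was at −0.10 in the adult and 0.06 in the embryo, Tfpi2, a protease inhibitor, at 0.25 and −0.02, Ppp1r9a at 0.19 and −0.10, and Asb4 at 0.17 and 0.09. Over the 40 probes of the span the medians were −0.0037 in the adult and −0.04 in the embryo.

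Among the remaining loci with a maternal mark, Grb10, an adaptor of insulin signalling (chromosome 11, 11866637 to 11907482), had both probes low in the embryo. These were at −0.32 (1430 in offspring, 1780 in control) and −0.41 (1124 and 1485), whereas in the adult they were at −0.13 and 0.21. Commd1, a regulator of copper handling on the same chromosome (22794789 to 22869683), had embryo probes at −0.36, −0.43 and −0.23 and adult ones at 0.05, −0.03 and 0.15. Slc38a4, an amino acid transporter (chromosome 15, 97097895 to 97123556), was high in the embryo at both probes, at 0.67 (428 in offspring, 267 in control) and 0.34 (2353 and 1854), and at 0.10 and −0.07 in the adult. Its flanks of 20 probes on each side had embryo medians of 0.01 and −0.04, those of Grb10 0.02 and −0.10, and those of Commd1 0.08 and −0.10.

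Impact, which acts on translation control (chromosome 18, 13162799 to 13172428), was at 0.38 in the embryo and −0.20 in the adult, with a first probe at 0.52 in the embryo (3737 in offspring, 2589 in control) and −0.55 in the adult (2506 and 3615). Copg2, a coat protein of transport vesicles next to Mest (chromosome 6, 30787850 to 30924661), was at −0.36 in the embryo, with probes at −0.56 and −0.16, and at −0.18 in the adult. Mest, a hydrolase, was at 0.02 in the embryo and 0.01 in the adult. Plagl1, a zinc finger transcription factor on chromosome 10, was at 0.24 in the embryo and −0.07 in the adult, with both embryo probes close together at 0.22 and 0.26. Gnas, the stimulatory G protein alpha subunit on chromosome 2, had 5 probes from −0.11 to 0.44 in the adult and from −0.74 to 0.18 in the embryo, with medians of 0.29 and −0.04. Its adult probe at 0.44 was not well above background in either channel, and without it the adult median of Gnas was 0.19 (0.12 over all probes with the deposited log ratio). Nnat, neuronatin, was at −0.09 in the adult and 0.17 in the embryo, but its probe lies on chromosome 9 in the files and the mouse gene table gives the gene on chromosome 2. Of the genes with no assigned mark, Htr2a, a serotonin receptor, was at 0.32 in the adult (probes at 0.37 and 0.28) and 0.09 in the embryo, Dcn, a proteoglycan, at −0.14 and 0.11, and Gatm, an enzyme of creatine synthesis, at 0.14 and 0.01.

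Across the spans with at least 5 probes (8 loci) the median log2 ratio lay between −0.04 and 0.29 in adults and between −0.09 and 0.24 in embryos, and 0 reached the threshold on either. With the mean over probes, Peg3 (0.43 in the adult) and H19-Igf2 (0.33 in the embryo) reached it, and with normexp H19-Igf2 (0.38) and Peg3 (−0.31) did in the embryo. Windows of 20 consecutive autosomal probes reached the threshold in 0.0993% (adult) and 0.149% (embryo) of cases, but most of these spans hold fewer than 20 probes. The loci whose own median was past it (Grb10, Commd1, Slc38a4 and Impact in the embryo and Htr2a in the adult) have 2 or 3 probes each. Medians of few probes pass more often: of named autosomal genes with 2 or more probes, 13.4% (adult) and 14.4% (embryo) did. With normexp, Grb10 (−0.22), Slc38a4 (0.21) and Htr2a (0.17) were no longer past it, and Plagl1 was at 0.51 in the embryo.

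With background correction by normexp and an offset of 50, 1 of the 7 adult genes, Dio3, remained past the threshold, against 10 of the 13 in the embryo, where Cd81, Grb10 and Slc38a4 were lost and Phlda2 was at 1.54. The share of all named autosomal genes past the threshold was not counted with normexp. Whether these losses are particular to imprinted genes was therefore not tested. Normexp started from the mean and background intensities, before dye normalization. The adult array was dimmer, with median background-subtracted signals of 40.8 (offspring) and 56.3 (control), against 189 and 105 in the embryo. An offset of 50 added to both channels moves ratios of dim probes towards 0. What part the offset has in the adult losses was not tested. The adult medians that were lost lay between −0.0012 (Igf2r) and 0.29 (Mkrn3), with Cdkn1c at 0.07 and Peg3 at 0.08. Read as Cy5 over Cy3 on both arrays, which turns the adult sign, 27 of the 43 genes had the same sign on both arrays. Dio3 and Cdkn1c were then past the threshold in the same direction. Both counts follow from the turned sign by construction. Before the turn, 39.7% of all named autosomal genes had the same sign and 4.79% were past the threshold in opposite directions.

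Of 39 other imprinted genes and neighbours, 20 had probes under those names. Their median was −0.02 in the adult (1 higher, 5 lower) and 0.04 in the embryo (3 higher, 2 lower). In the adult 5% were higher and 25% lower, against 9.38% and 10.3% of all named autosomal genes, and in the embryo 15% and 10%, against 10.2% and 11%. Rtl1 (−0.04 in the adult and −0.20 in the embryo), Dhcr7 (0.01 and 0.17) and Th (−0.09 and −0.01) were the 3 with the same sign on both arrays. Of 31 genes that set or keep imprints, 17 had probes under those names. Over the 16 that are autosomal the median was −0.02 in the adult (1 higher, 1 lower) and 0.04 in the embryo (3 higher, 0 lower). Here 6.25% were higher and 6.25% lower in the adult and 18.8% and 0% in the embryo, against 9.38% and 10.3% (adult) and 10.2% and 11% (embryo) of all named autosomal genes. Trim28, a corepressor of imprint maintenance, was at 0.09 in the adult and 0.72 in the embryo, Yy1 at 0.27 and 0.05, and Setdb1, a histone methyltransferase, at −0.18 and −0.01.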

How the data were processed

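Genomic DNA was hybridised to 2-colour arrays, 1 array per stage. Per the file headers, intensity values are those of Agilent Feature Extraction 9.1.1.1 (version 9.1 per the submitters' processing notes): processed signals were background-subtracted, detrended and dye-normalized, and dim spots received surrogate values. The mean and background intensity columns of the deposited files precede those steps. The deposited log10 ratio is Cy5 over Cy3, and its error column is on the log10 scale. The deposited value table equals that log10 ratio within 0.0005 at each of the 44050 spots, and its column medians were −0.0032 for the adult and 0 for the embryo. No source used here names the genome build of the probes, so their exon or intron is not given.

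From the 44050 spots, 1030 control spots and 8 (adult) or 34 (embryo) outlier spots were left out. Spots of a probe were averaged as log2 offspring over control, with dyes taken from the labels, and centred on the array median, with no loess. Names were matched as the files give them, and the mouse gene table (GRCm38.p6) served for chromosomes and promoters. The coordinates of the 2 builds were not mixed. limma (lmFit, eBayes) was run over both arrays with Benjamini-Hochberg adjustment over 42362 probes. Steps were tested on simulated data. R 4.3.3 with limma 3.58.1 and Python 3.11.15 with pandas 2.3.3 were used. A dim probe's fold uses the higher of its signal and the lowest signal well above background, and is not a lower bound. The members and lists were chosen with earlier results of these data known. All 43 genes are named, those past 0.3, the control genes of the loci and the most variable with their probe values. Of the other lists, 1 gene that the naming rule picks is not reported here.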

Additional observations from a re-analysis of the deposited data

Results flagged for a closer look

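Dio3 and Cdkn1c were higher in the offspring on the adult array and lower on the embryo array, each past 0.3 log2. With normexp the adult ratio of Cdkn1c was 0.07, and Dio3 remained past the threshold on both arrays. For Dio3 the embryo log2 ratio minus the adult one was −1.11, and for Cdkn1c −0.97 (−0.968). Each gene rests on 1 probe and each stage on 1 array, so the difference was not tested. On both arrays the Cy3 channel was the brighter one for these 2 probes, and what part the dye has in this was not tested.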

How the results depend on the processing

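The settings tried were normexp with an offset of 50, only probes well above background, loess, the deposited log ratio, an autosomal centre, the mean over probes, a threshold of 0.5, both arrays as Cy5 over Cy3, added synonyms (which added no probe), and leaving out the 4 probes on another chromosome than the gene table gives. Leaving out the highest probe of each array, and leaving out the 6 probes outside the locus of their gene, were added after seeing the data. Apart from the Cy5 over Cy3 reading, which turns every adult sign, 32 of 770 gene values and 18 of 216 locus values changed sign, of which 20 and 7 were with normexp. In that setting 9 gene calls were lost and 4 gained. The number of adult genes past the threshold was 1 with normexp and 2 (Dio3 and Peg3) at 0.5, against 7, and of embryo genes 5 at 0.5, against 13. The shares of all named autosomal genes were not counted in these settings. As Cy5 over Cy3, 2 genes were past the threshold in 1 direction on both arrays, 27 had the same sign and the adult median was −0.02 (−0.0168). The 2 genes are those past it in opposite directions in the main reading, as were 4.79% of all named autosomal genes. With the sign turned the adult ratios were −0.30 for Atp10a, −0.36 for Cdkn1c, −0.59 for Dio3, −0.32 for Htr2a (gene and locus), −0.43 for Igf2r, −0.36 for Mkrn3 and −0.59 for Peg3, by construction. With normexp the adult ratio of Igf2r was −0.0012, and the cause was not tested. The limma fit, which pools the stages and does not test either one alone, called 0 imprinted gene probes under each setting it was run in. At an unadjusted p under 0.05 there were 2 with normexp, 1 without dim probes and 7 as Cy5 over Cy3. The share of all probes at that level was counted in the main setting only (4.53%), so these counts have no background beside them. A correction for the GC content of the probes was not run, since it needs probe sequences, which are not used here. No paired analysis was possible because each stage has 1 array. Depth is not a count here: 3 adult probes and 0 embryo probes of the imprinted genes had a channel not well above background.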

Other observations

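Within the spans of the imprinted loci, 6 probes that carry no name from the list of imprinted genes had a log2 ratio of at least 1 in size on 1 array. The share of all autosomal probes that far from 0 was not counted, so this count has no background beside it. In the Snrpn span a probe named Tle2 was at 1.35 in the embryo and −0.74 in the adult, and 0610009M14Rik at 1.06 in the adult and 0.38 in the embryo, not well above background in at least 1 adult channel. In the Dlk1-Gtl2 span 2900016B01Rik was at 1.11 in the adult and −0.25 in the embryo, and NAP058215-1 at −1.08 and −0.15. An unnamed probe in the Igf2r span was at −1.04 in the adult and 0.18 in the embryo. NAP115036-1 in the Peg10 span, also not well above background in at least 1 adult channel, was at −1.70 in the adult and −0.47 in the embryo. These values are given with no test.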
